A study of Homo sapiens with 22 samples.

Results

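Open chromatin after knockdown of LOXL2 was compared by where it lies in the genome: in promoters, exons, introns or between genes, at what distance from gene starts, on which chromosomes and beside which genes. The members are the 6 ATAC-seq peak lists of the series, out of 22 samples in all, and together they hold 261920 peaks. All 6 come from MDA-MB-231 cells, a widely used established line from a human triple-negative breast tumour. The cells of 3 libraries were infected with a control short hairpin RNA (shControl) and those of the other 3 with a hairpin against LOXL2 (shLOXL2). The labels give no other genotype, agent, dose or time, and both carry an infected hairpin. The labels name 1 cell line and do not say how many hairpin sequences were used or whether replicates came from separate cultures, so p-values measure the spread between these libraries, which may be technical. RNA-seq from 3 shControl and 3 shLOXL2 samples served as a second readout, and the other samples of the series were not analysed here.

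ATAC-seq uses the Tn5 transposase to cut and tag DNA that is not wrapped tightly in chromatin, so a peak marks a promoter, enhancer or other accessible element. Promoters of active genes are GC-rich and open in most cell types, whereas open elements in introns and between genes differ more from one cell type to another. In mesenchymal breast cancer cells many such distal elements carry the motif of AP-1, the dimers of FOS and JUN family proteins. LOXL2 is an amine oxidase of the lysyl oxidase family, known for crosslinking collagen outside the cell and also described in the nucleus.

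The lists held 27099, 45416 and 36967 peaks in shControl replicates 1, 2 and 3, and 47232, 49614 and 55592 in the shLOXL2 replicates. No read depths were used, so the number of peaks mixes depth, enrichment and accessibility, and the part of each was not tested. Each comparison was therefore made on all peaks and on equal numbers, the 27099 best peaks of each list by the authors' score, where shControl replicate 1 enters whole. The score at which a list was cut was 20 in shControl replicate 1, 98 and 65 in shControl replicates 2 and 3, and 108, 117 and 149 in the shLOXL2 libraries. LOXL2 RNA was 445, 413 and 379 CPM (counts scaled to library size) in shControl and 132, 139 and 99.1 CPM in shLOXL2, without overlap. It fell by 1.74 ± 0.107 on the log2 scale (edgeR quasi-likelihood test, adjusted p = 7.67e-07). The line's mesenchymal markers were high in every RNA library, with VIM at 3750 to 4107 CPM, while luminal ESR1 did not exceed 0.0248 CPM and CD3E of T cells was at 0. The other luminal genes lay between 0.0219 CPM for FOXA1 and 14.5 CPM for ERBB3, and blood PTPRC and liver ALB did not exceed 0.527 CPM.

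Sequences are shown for the kinds of region the comparison turns on, taken from hg19 (GRCh37), plus strand, from 5′ to 3′, with searched motifs in capitals. The motifs, read on both strands, were AP-1 TGANTCA, the GC box GGGCGG, ETS CCGGAAG, the CCAAT box CCAAT, TEAD GGAATG, CRE TGACGTCA, the E-box CACGTG, RUNX TGTGGT and the CTCF core. None of those spelled out contains another. A match describes the letters and is no evidence that a factor binds there. Exonic bases were left out. These 2 promoter regions were among the best-scoring regions found in all 6 lists. The first, at chr14:78082981-78083150, lies at the start of SPTLC2, a subunit of serine palmitoyltransferase. The second, at chr5:151151126-151151325, lies in annotated introns of G3BP1, which encodes a stress granule protein, and of ATOX1, a copper chaperone gene.
SPTLC2 promoter: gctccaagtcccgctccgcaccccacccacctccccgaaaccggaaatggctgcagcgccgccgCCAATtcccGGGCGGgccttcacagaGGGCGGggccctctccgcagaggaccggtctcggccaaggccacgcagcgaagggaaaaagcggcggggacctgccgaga
G3BP1 promoter: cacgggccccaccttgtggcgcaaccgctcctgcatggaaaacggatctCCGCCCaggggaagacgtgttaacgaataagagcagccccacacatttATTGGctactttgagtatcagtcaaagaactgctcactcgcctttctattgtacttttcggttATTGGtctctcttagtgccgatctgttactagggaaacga

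The next 2 regions were called in all 3 shLOXL2 lists at equal number and in no shControl list, even in full. They lie in an intron of GKAP1 (chr9:86439990-86440189) and between genes nearest to JDP2 (chr14:75888935-75889134), which encodes a partner of JUN proteins. The GKAP1 intron holds 2 AP-1 motifs beside an ETS and a TEAD motif, and the JDP2 region holds an E-box.
GKAP1 intron: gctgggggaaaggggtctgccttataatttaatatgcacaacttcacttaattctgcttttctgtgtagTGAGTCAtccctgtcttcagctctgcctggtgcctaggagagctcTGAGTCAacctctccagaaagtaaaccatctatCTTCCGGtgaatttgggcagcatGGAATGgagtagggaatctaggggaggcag
near JDP2: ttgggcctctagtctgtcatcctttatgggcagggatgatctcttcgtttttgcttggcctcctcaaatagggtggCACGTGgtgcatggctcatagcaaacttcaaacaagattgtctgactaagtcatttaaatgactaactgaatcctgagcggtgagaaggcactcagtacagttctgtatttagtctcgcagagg

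The last 2 regions were called in all 3 shControl lists at equal number and in no shLOXL2 list. They lie in an intron of CTDSPL, a phosphatase gene (chr3:37950881-37951080), and in an intron of a non-coding gene nearest to the start of CD34 (chr1:208020472-208020671). Neither holds an AP-1 motif, the first holds none of the motifs and the second holds a CCAAT box.
CTDSPL intron: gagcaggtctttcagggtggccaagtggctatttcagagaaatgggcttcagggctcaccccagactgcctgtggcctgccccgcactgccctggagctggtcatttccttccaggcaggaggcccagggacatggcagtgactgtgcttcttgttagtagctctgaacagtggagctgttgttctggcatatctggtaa
near CD34: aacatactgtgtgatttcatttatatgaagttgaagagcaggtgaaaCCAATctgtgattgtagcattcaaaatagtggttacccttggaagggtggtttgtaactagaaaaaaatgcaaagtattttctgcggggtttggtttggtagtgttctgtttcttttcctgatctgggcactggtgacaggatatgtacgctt

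The scores behind these calls differed in size. The SPTLC2 promoter scored 876, 1775 and 1297 in shControl and 1585, 1850 and 2014 in shLOXL2, and ranked between 5 and 14 in every list. The GKAP1 intron scored 258, 358 and 356 in shLOXL2, at ranks 8893, 5827 and 9243. The CTDSPL region scored 70, 224 and 154 in shControl. The printed regions seen in 1 group only thus ranked far below the printed promoters.

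Promoters took a smaller share of the open regions after LOXL2 knockdown, and introns and intergenic DNA took a larger one. A peak was a promoter peak when any base lay within 1000 bases of an annotated gene start. At equal number the promoter share was 33.2%, 31.6% and 33.3% in shControl and 29.9%, 29.5% and 29.2% in shLOXL2. Every shLOXL2 library lay below every shControl library, by -3.17 percentage points between means of 32.7% ± 0.934 and 29.5% ± 0.360 (SD, n = 3, two-sided exact permutation p = 0.1). With 3 against 3 libraries 0.1 is the smallest p this test can give, so no single share can reach 0.05. In number, 8860 ± 253 promoter peaks stood against 8002 ± 97.5 among the same 27099 (SD, n = 3). The intron share was 40.1% ± 0.698 against 42.4% ± 0.500 and the intergenic share 21.9% ± 0.361 against 22.7% ± 0.165 (SD, n = 3), both without overlap. The exon share was 5.33% ± 0.151 against 5.38% ± 0.125 (SD, n = 3) and overlapped. For scale, windows of 402 bases set every 10000 bases along the genome were 4.80% promoter, 4.28% exon, 54.5% intron and 36.4% intergenic.

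Promoter peaks were fewer at equal number and more numerous in the full lists. Their number in the full lists was 8985, 12180 and 11264 in shControl and 12464, 12756 and 13444 in shLOXL2, with no overlap. Intron peaks numbered 10809, 19717 and 15211 in shControl against 20560, 21938 and 25018 in shLOXL2. Among peaks outside promoters, the split between exon, intron and intergenic DNA overlapped between the groups, with introns at 59.6% and 60.1% at equal number. At equal number 8199, 8129 and 8612 protein-coding genes had a peak at their own start in shControl, against 7687, 7594 and 7451 in shLOXL2. The groups did not overlap, and the means differed by -736 genes. The kind of gene at promoter peaks did not separate the groups at equal number: 81.8% ± 0.583 against 81.1% ± 0.333 of promoter peaks had a protein-coding start within 1000 bases (SD, n = 3). With all peaks, the share with no such start and a long non-coding RNA gene nearest was higher in shLOXL2. It was 13.5%, 14.9% and 14.0% against 15.1%, 15.2% and 15.6%, without overlap.

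**Figure D1:**
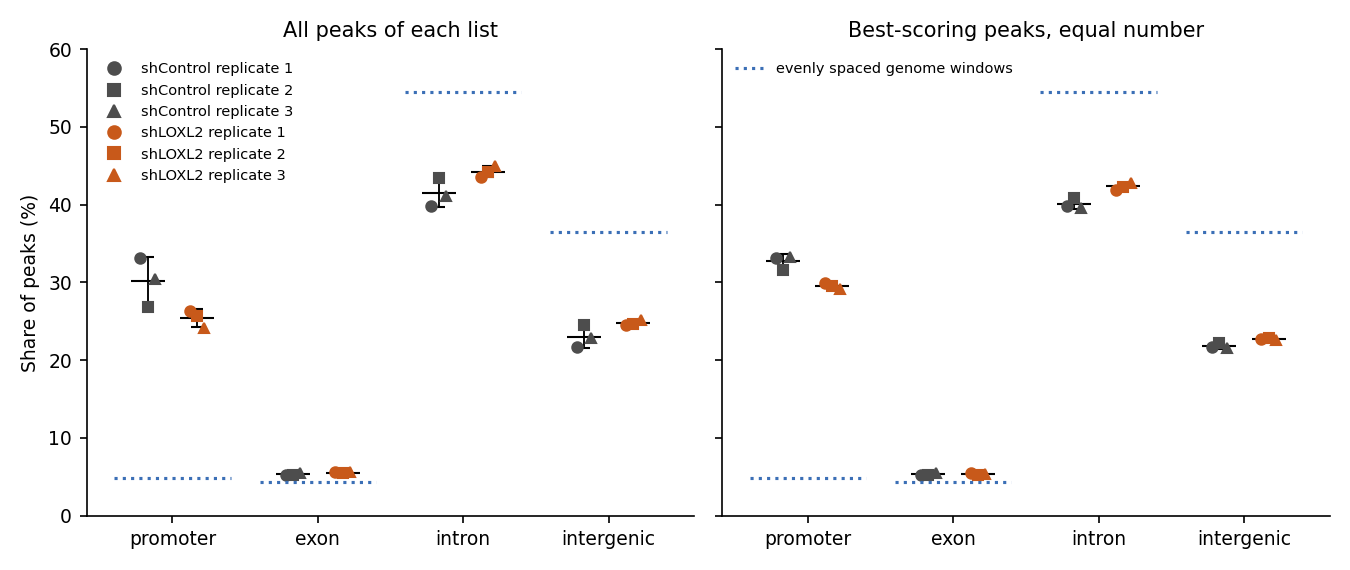
Share of peaks by class (y axis, percent) in all peaks (left) and at equal number (right). Each point is 1 library, black bars are the mean and SD of 3 libraries, and dotted blue lines give the share of evenly spaced genome windows. At equal number the 3 shLOXL2 promoter shares of 29.2% to 29.9% lie below the shControl shares of 31.6% to 33.3%.

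The promoter share depended on how far down a list peaks were taken. The 2500 best peaks of each list were 39.5% ± 0.983 promoter in shControl and 36.2% ± 0.673 in shLOXL2 (SD, n = 3). The groups were separated at all 7 numbers from 2500 to 27099, with differences between -2.88 and -3.32 percentage points. When each whole list was divided into 10 equal score bins, the mean share went from 38.4% in the best bin to 22.3% in the weakest in shControl, and from 34.7% to 18.2% in shLOXL2. The groups were separated in 7 of 10 bins and overlapped in bins 7, 8 and 10. The weakest bin of shControl replicate 1, the shortest list, was still 31.8% promoter, against 15.1% and 20.2% in shControl replicates 2 and 3. Beyond the equal number, promoters made up 19.7% and 22.7% of the further peaks of shControl replicates 2 and 3 and 21.7%, 21.1% and 19.4% of those of shLOXL2.

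**Figure D2:**
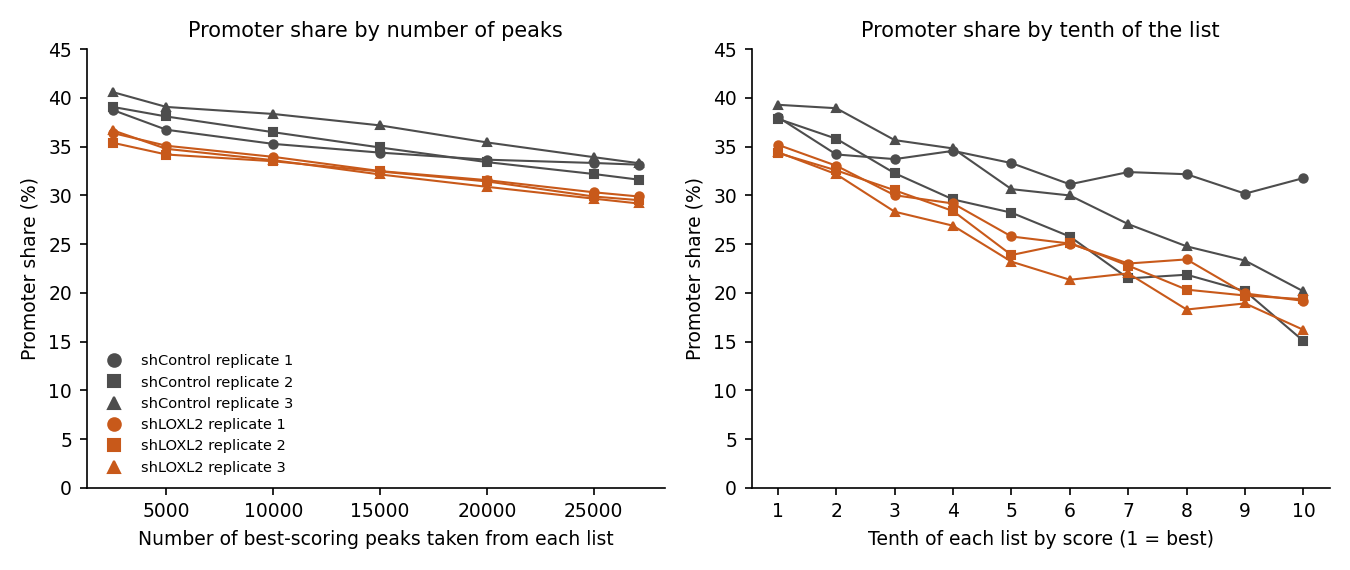
Promoter share (y axis, percent) by the number of best-scoring peaks taken (left) and by score bin of each whole list (right, bin 1 holds the best peaks). Each line is 1 library. The shLOXL2 lines stay below the shControl lines at every number, while shControl replicate 1 stays at 31.8% in its weakest bin.

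Merging the 6 lists gave 69973 regions, and the more lists shared a region, the more often it was a promoter. Promoters were 9.11% of the regions in 1 list and 36.8% of the 22513 regions in all 6. In the equal number lists, which merged to 39912 regions, 777 regions (1.95%) were in all 3 shLOXL2 and no shControl list and 585 (1.47%) were the reverse. Of the 777, 51 (6.56%) were promoters, 439 intronic and 247 intergenic. Of the 585, 186 (31.8%) were promoters, 244 intronic and 130 intergenic. In the full lists 52 regions were in every shControl list and in no shLOXL2 list, and only 3 of them were promoters, while 39 were intronic and 10 intergenic. Among the hosts of these intronic regions were APP, the amyloid precursor gene, HDAC9, a histone deacetylase gene, EFNB2, an ephrin ligand gene, and STS, the steroid sulfatase gene.

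Distance from gene starts also differed at equal number, with a smaller share of shLOXL2 peaks near a start and larger shares at 10 to 100 kb. The median distance from a peak's midpoint to the nearest protein-coding gene start at equal number was 28616, 31755 and 28864 bases in shControl and 32244, 32998 and 31862 bases in shLOXL2. The groups did not overlap, with means of 29745 ± 1745 and 32368 ± 578 bases (SD, n = 3, exact permutation p = 0.1). Evenly spaced genome windows had a median of 84967 bases. Peaks within 1 kb of a start were 26.0% ± 0.998 against 23.2% ± 0.432, and peaks at 10 to 50 kb were 24.4% ± 0.519 against 25.9% ± 0.593 (SD, n = 3), both without overlap. Peaks at 50 to 100 kb were 14.3% ± 0.267 against 14.6% ± 0.0963 (SD, n = 3), again without overlap. The shares at 1 to 10 kb and beyond 100 kb overlapped. Once promoter peaks were left out, the medians overlapped at equal number, at 61280 ± 1003 and 59922 ± 2343 bases (SD, n = 3). All peaks outside promoters had a lower median in shLOXL2, at 60641 ± 1400 against 57823 ± 1082 bases, without overlap (SD, n = 3, exact permutation p = 0.1). In all peaks, promoters included, the median overlapped, at 31796 ± 4022 and 34904 ± 572 bases (SD, n = 3, exact permutation p = 0.4).

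Peak width did not separate the groups. The median width was 364, 466 and 398 bases in the full shControl lists and 396, 385 and 399 bases in shLOXL2. At equal number it was 364, 602 and 476 bases against 516, 513 and 557 bases, with shControl replicates 1 and 2 at the extremes. Promoter peaks were wider than others in every library. The ratio of their median widths at equal number was 1.52, 1.59 and 1.61 in shControl and 1.64, 1.64 and 1.70 in shLOXL2, without overlap (exact permutation p = 0.1).

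Motif content set the open regions of the groups apart. At equal number the AP-1 motif stood in the central 200 bases of 28.5%, 28.8% and 29.2% of shControl peaks and 33.4%, 34.5% and 35.3% of shLOXL2 peaks. The groups did not overlap, and their means of 28.8% ± 0.365 and 34.4% ± 0.968 differed by 5.57 percentage points (SD, n = 3). The motif was in 6.26% of 28337 evenly spaced genome windows and 3.89% of 20098 windows on protein-coding gene starts. It is the motif seen in the GKAP1 intron printed above.

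The AP-1 difference was also present inside each class at equal number. In promoters the share was 6.38% ± 0.115 against 7.61% ± 0.512, in exons 27.1% ± 1.12 against 32.4% ± 1.41, in introns 40.6% ± 1.03 against 46.5% ± 0.843 and in intergenic DNA 41.4% ± 1.03 against 47.2% ± 1.1 (SD, n = 3). None of these 4 pairs of groups overlapped. With all peaks taken, the promoter, exon and intron shares stayed apart, and the intergenic share overlapped, at 41.6%, 34.8% and 38.4% against 40.3%, 41.5% and 41.3%. Over all classes together the groups were apart in all 10 score bins of the full lists, from 30.0% against 35.8% in the best bin to 19.5% against 22.2% in the weakest. In shControl replicates 1, 2 and 3 outside promoters the share at equal number was 39.5%, 39.1% and 40.7%, and in shLOXL2 44.6%, 45.8% and 46.5%.

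**Figure D3:**
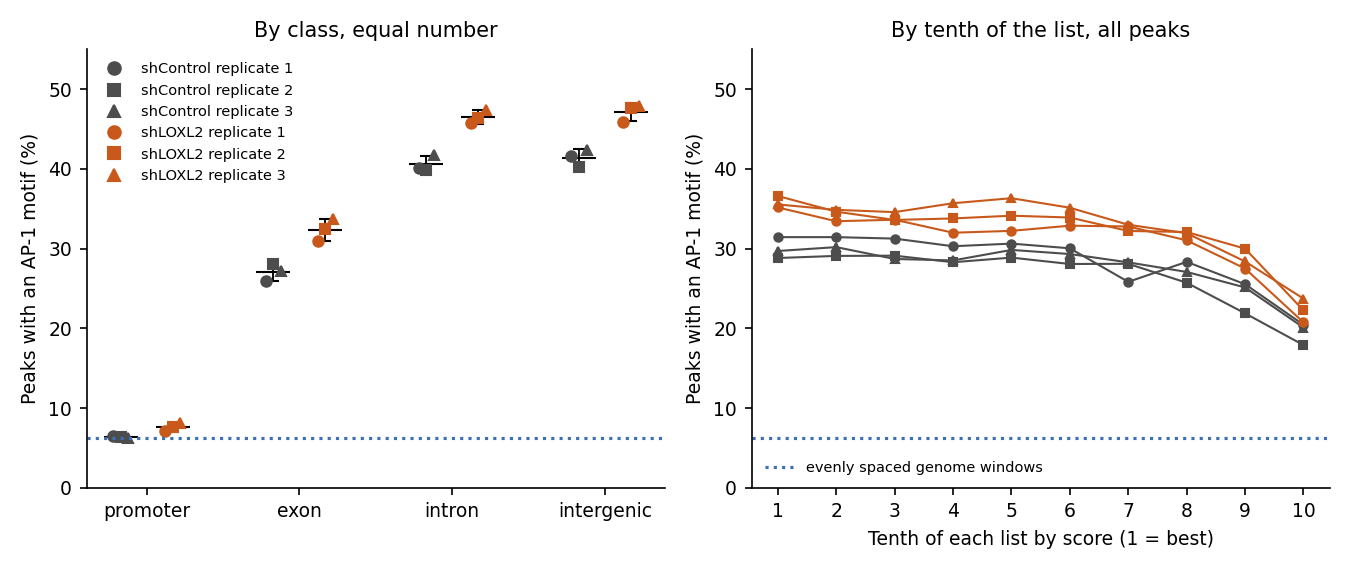
Share of peaks with an AP-1 motif in the central 200 bases (y axis, percent) by class at equal number (left, black bars mean and SD of 3 libraries) and by score bin of the whole lists (right). Points and lines are libraries, and the dotted line is the 6.26% of evenly spaced genome windows. The shLOXL2 libraries lie above the shControl libraries in each class at equal number and in each bin.

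The other motifs differed by fewer percentage points at equal number, and some were lower in shLOXL2. Outside promoters the TEAD motif, read by the partners of YAP and TAZ, was in 19.8% ± 0.336 of shControl and 18.7% ± 0.187 of shLOXL2 peaks, without overlap (SD, n = 3). There the E-box was at 2.62% ± 0.00851 against 2.46% ± 0.0178 and the CCAAT box at 23.3% ± 0.102 against 22.8% ± 0.327 (SD, n = 3), both without overlap. RUNX, at 22.2% ± 0.278 against 21.9% ± 0.297, overlapped (SD, n = 3). The GC box, a promoter motif in 46.6% of gene-start windows, was in 24.6% ± 1.32 against 22.3% ± 0.522 of all peaks at equal number (SD, n = 3), without overlap. Inside promoters it overlapped, at 55.6% ± 1.44 against 54.6% ± 0.651 (SD, n = 3). Outside promoters mean GC content was 48.1% ± 0.331 against 47.9% ± 0.0638 (SD, n = 3) and overlapped, while CpG dinucleotides per window there were lower, at 3.90 ± 0.152 against 3.60 ± 0.0718 without overlap (SD, n = 3). Over all classes mean GC content was lower too, at 53.8% ± 0.469 against 53.0% ± 0.166 without overlap (SD, n = 3). The core of the CTCF motif overlapped at equal number, at 0.775% ± 0.129 against 0.802% ± 0.113, and was higher without overlap with all peaks taken, at 0.915% ± 0.238 against 1.295% ± 0.0327 (SD, n = 3).

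The regions that only 1 group held showed the same contrast. AP-1 stood in 207 of the 333 regions (62.2%) that all 3 shLOXL2 lists held at equal number and no shControl list held in full. It stood in 424 of the 777 regions (54.6%) on the shLOXL2 side of the equal number lists and in 85 of the 585 (14.5%) on the shControl side. These sets differ in their share of promoters, where AP-1 is rarer. Outside promoters AP-1 stood in 402 of 726 regions (55.4%) against 76 of 399 (19.0%). Of the 52 regions of every shControl list and no shLOXL2 list, 7 (13.5%) held AP-1 and 19 (36.5%) held TEAD. The 22513 regions of all 6 lists held AP-1 in 26.7% and TEAD in 14.7%, and those of them outside promoters in 39.0% and 19.0%. These are descriptions of regions chosen by their presence, with no test.

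The AP-1 genes themselves changed in RNA in both directions. Of 14 listed members, 3 rose and 5 fell in RNA (edgeR adjusted p below 0.05), with a median log2 fold change of -0.17. Over all 12790 protein-coding genes tested, 24.4% rose and 23.8% fell. FOSL1, a FOS family gene high in this line, went from 271 to 193 CPM and fell by 0.49 ± 0.115 on the log2 scale (edgeR adjusted p = 0.00523). JUN fell by 0.19 ± 0.0563 (adjusted p = 0.0181), while JUND rose by 0.45 ± 0.0793 (adjusted p = 0.000843), both on the log2 scale from edgeR. FOSB was at 41.2, 41.1 and 247 CPM in shControl and 38.9, 43.2 and 27.8 CPM in shLOXL2, so its fall of -1.58 on the log2 scale (edgeR adjusted p = 0.0422) rests on shControl replicate 3. Nearest to FOSL2, which encodes another FOS family protein, lay 4, 5 and 5 peaks in shControl and 8, 6 and 9 in shLOXL2 at equal number. Its RNA was 240 ± 21.3 and 268 ± 2.71 CPM (SD, n = 3, edgeR adjusted p = 0.0525).

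The lower promoter share was spread over the genome. At equal number the promoter share within a chromosome was lower by mean in shLOXL2 on all 23 chromosomes, and the groups were separated on 21 of 23, with overlap on chromosomes 15 and 19. The differences ran from -1.70 percentage points on chromosome 5 to -11.0 on chromosome 22, where the libraries held 49.6%, 45.3% and 54.8% against 42.6%, 41.2% and 33.1%. Chromosome 22 had few peaks, between 0.432% and 0.686% of each list, so its share is less certain. Chromosome 19, the most gene-dense with 25.0 protein-coding genes per Mb, had the highest promoter shares, 71.5% ± 1.08 and 67.8% ± 3.27 (SD, n = 3).

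The share of a list on each chromosome moved little. Chromosome 18 held 1.56%, 1.64% and 1.56% of peaks in shControl and 1.76%, 1.78% and 1.77% in shLOXL2 at equal number. Chromosomes 7, 13 and 15 were lower without overlap, with chromosome 15 at 2.54%, 2.56% and 2.61% against 2.39%, 2.36% and 2.41%. For all 4 the exact permutation p was 0.1, and 0.575 after Benjamini-Hochberg adjustment over 23 chromosomes. With all peaks taken, chromosomes 2, 6, 7 and 11 were lower and chromosomes 16, 18 and 22 higher without overlap. Chromosomes 13 and 15 then overlapped, with means for chromosome 15 of 2.65% and 2.67%. At equal number chromosome 18 also had one of the largest drops in promoter share, from 35.3% ± 1.47 to 29.2% ± 0.146 (SD, n = 3).

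**Figure D4:**
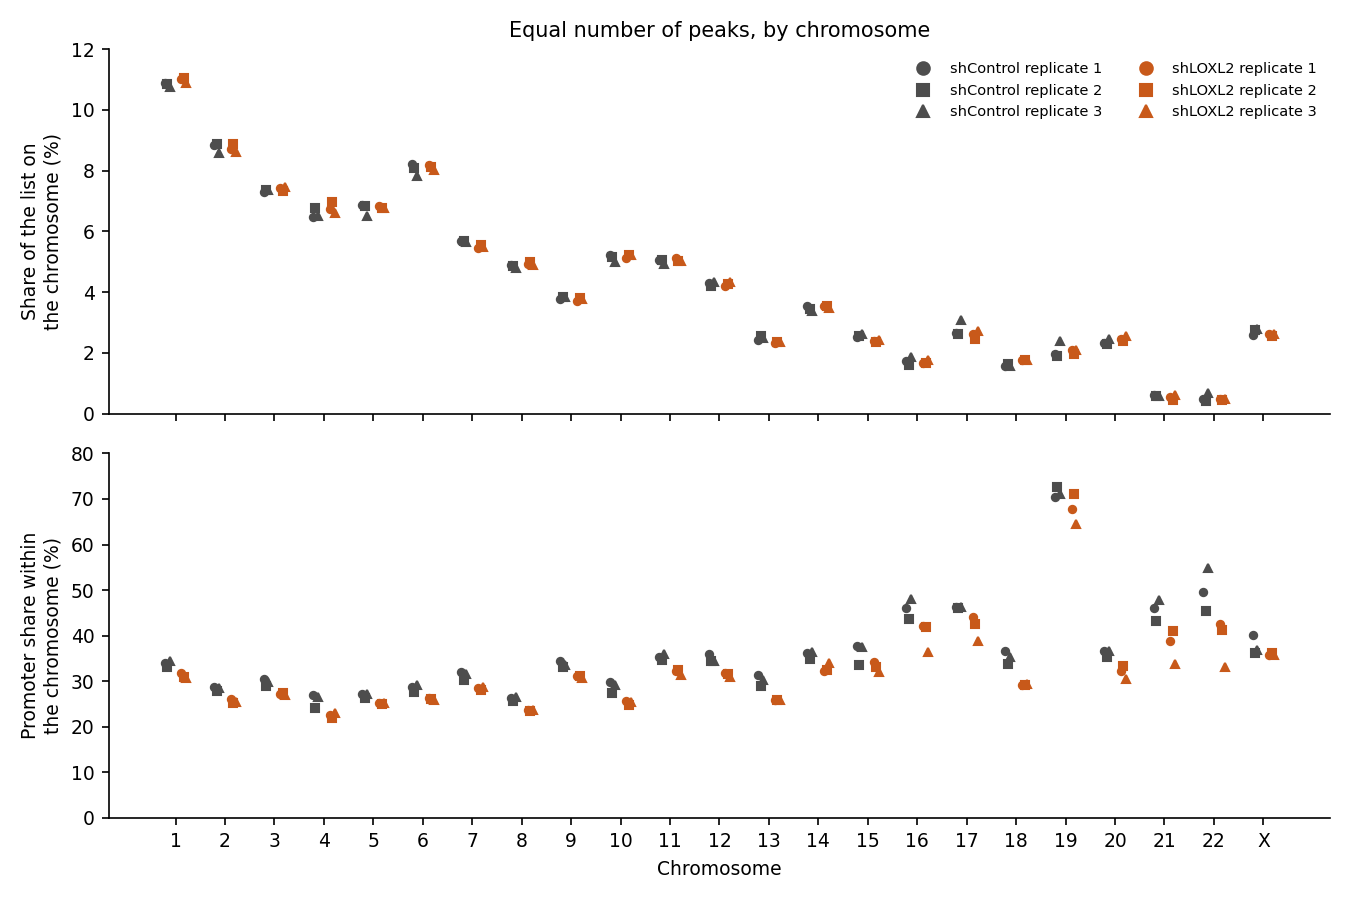
Share of the list on each chromosome (top) and promoter share within each chromosome (bottom), both in percent at equal number. Each point is 1 library. The share per chromosome is nearly the same in both groups, while the promoter share is lower in shLOXL2 by mean on all 23.

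In windows of 5 Mb, 23 of 569 were called at equal number by limma on log2(count + 1) with adjusted p below 0.05. Of these, 5 (0.879%) were higher and 18 (3.16%) lower in shLOXL2. The clearest was chromosome 8 from 10 to 15 Mb, with 40, 39 and 40 peaks in shControl and 21, 27 and 24 in shLOXL2, a fall of -0.71 ± 0.106 on the log2 scale (limma adjusted p = 0.000613). Outside promoters it held 30, 28 and 28 against 16, 19 and 17 peaks, and it also took a smaller share of the full lists, 0.148%, 0.152% and 0.138% against 0.133%, 0.121% and 0.126%. RNA there did not move together: the median log2 fold change of its 14 tested genes was -0.04, with 3 higher and 3 lower. Over all tested protein-coding genes 24.4% were higher and 23.8% lower.

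Neighbouring windows of chromosome X were lower together. From 5 to 10 Mb, around STS, there were 36, 39 and 35 peaks against 26, 25 and 25 (log2 change -0.52 ± 0.0994, limma adjusted p = 0.00742). From 10 to 15 Mb there were 31, 40 and 38 against 29, 20 and 28, and from 15 to 20 Mb 47, 59 and 55 against 40, 41 and 40. On chromosome 18 the windows from 40 to 45 Mb, with 22, 28 and 24 against 35, 30 and 34 peaks, and from 45 to 50 Mb, with 33, 38 and 38 against 44, 50 and 45, were higher. The latter holds SMAD7, an inhibitor of TGF-beta signalling, which had the most peaks in it. The other named rises were chromosome 5 from 160 to 165 Mb (10, 10 and 9 against 20, 14 and 14, most near MAT2B), chromosome 19 from 15 to 20 Mb (52, 50 and 63 against 72, 64 and 70, most near KLF2) and chromosome 12 from 75 to 80 Mb (51, 59 and 52 against 68, 71 and 63, most near SYT1). The other named falls were chromosome 17 from 80 to 85 Mb (12, 15 and 17 against 7, 6 and 13) and chromosome 19 from 0 to 5 Mb (32, 25 and 52 against 25, 19 and 21). Both were called although the groups overlapped. As shares of the full lists they were 0.0443%, 0.0683% and 0.0649% against 0.0720%, 0.0625% and 0.0666%, and 0.118%, 0.216% and 0.279% against 0.256%, 0.234% and 0.254%, also with overlap. The windows near MAT2B and SYT1 and chromosome X from 10 to 15 Mb overlapped there too. The other windows named here stayed apart in the same direction. The count of called windows depended on the settings: limma called 0 with all peaks scaled to the same total (127 at an unadjusted p below 0.05), 33 without shControl replicate 3, 3 without shLOXL2 replicate 3, 6 without shLOXL2 replicate 1 and 9 without shLOXL2 replicate 2. Outside promoters, an alternative added after the data were seen, 27 windows were called and the split turned to 19 higher and 8 lower. These counts were not scaled to the same total. The equal number lists held 8860 ± 253 promoter peaks in shControl and 8002 ± 97.5 in shLOXL2 (SD, n = 3), so shLOXL2 had more peaks outside promoters. The part of that difference in the split was not tested.

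Gene by gene, each peak was counted for the protein-coding gene with the nearest start. Of 13650 genes with a peak at equal number, 387 (2.84%) had more peaks in every shLOXL2 list than in any shControl list, and 288 (2.11%) had fewer. Differences of at least 3 peaks were few, 24 higher and 15 lower. The full shLOXL2 lists are longer, and there 11.3% of 16216 genes with a peak were higher without overlap and 0.037% lower. Of the 387 genes, 167 (43.2%) stayed apart in the full lists, as did 3 of the 288 (1.04%). Since the full lists hold the peaks by which these genes were chosen, they are no separate support. A limma fit on square-root counts called 65 of 4456 genes, but 60 of them had the same count in all libraries of each group, which leaves no spread to test. Refitted to the 3884 genes with some spread within a group, it called 66, of which 39 were higher and 27 lower. That alternative too was added after the data were seen. With all peaks limma called 0 of 4066 genes (524 at an unadjusted p below 0.05). Among genes with a mean of at least 8 peaks, an alternative added after the data were seen, it called 0 of 440 (62 unadjusted). On simulated Poisson counts for the 4456 genes, rises were placed in 50 genes with a mean count at or above the median. The fit recovered 0% of 1.5-fold and 2.5-fold rises and 100% of 6-fold rises.

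TRIB1, a pseudokinase gene that guides protein degradation (chr8:126442600-126450645), had the largest rise, with 17, 19 and 19 peaks in shControl and 22, 25 and 25 in shLOXL2 at equal number. All peaks together gave 17, 31 and 24 against 37, 37 and 38. Its RNA was 33.4, 32.8 and 47.9 CPM against 59.0, 54.3 and 54.7 CPM and rose by 0.56 ± 0.118 on the log2 scale (edgeR adjusted p = 0.00273). ZMIZ1, a transcriptional coactivator gene, had 11, 10 and 8 against 15, 12 and 13 peaks, and its RNA rose by 0.45 ± 0.0465 on the log2 scale (edgeR adjusted p = 1.95e-05). TOMM20, a receptor of the mitochondrial import channel, had 11, 10 and 10 against 13, 13 and 16 peaks, and its RNA rose by 0.24 ± 0.0431 (edgeR adjusted p = 0.000958). FN1, which encodes fibronectin, went the other way in RNA. It had 4, 6 and 5 against 8, 9 and 8 peaks, while its RNA fell by 0.30 ± 0.0822 on the log2 scale (edgeR adjusted p = 0.0111). JADE1 also had more peaks, 5, 6 and 7 against 9, 10 and 9, and less RNA, with a log2 change of -0.37 ± 0.0481 (edgeR adjusted p = 9.4e-05). The other 5 of the 10 largest rises were CFAP20DC (14, 14 and 14 against 20, 21 and 16), CDC42EP3 (6, 5 and 6 against 10, 9 and 9), FAM136A (1, 1 and 3 against 5, 6 and 5), LPP (12, 16 and 12 against 17 in each) and TSPAN5 (7, 7 and 9 against 11 in each). None of these 5 passed the RNA test. JADE1, FN1 and TSPAN5 were 3 of 9 genes tied at the last place, taken by their limma p. None of the 10 rises in peak number passed limma at 0.05, with adjusted p from 0.0507 for CDC42EP3 to 0.415 for LPP. For TRIB1 the limma adjusted p was 0.174. Of the 10, 8 were also higher in the full lists, and JADE1 and FN1 overlapped. Over all genes, not chosen for a rise, 11.3% were higher there. The full lists hold the same peaks and are longer in shLOXL2, so they give these rises no separate support.

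EDN1, which encodes endothelin-1 (chr6:12290594-12297427), had 15, 16 and 16 peaks in shControl and 11, 11 and 12 in shLOXL2 at equal number (limma adjusted p = 0.0263). Its RNA was 34.8, 37.3 and 71.3 CPM against 18.8, 19.8 and 19.0 CPM and fell by 1.31 ± 0.219 on the log2 scale (edgeR adjusted p = 0.000574). Its numbers in the full lists overlapped, at 15, 17 and 16 against 14, 19 and 20. The largest fall was at CAMK1G, a calcium-dependent kinase gene, with 25, 28 and 24 against 18, 18 and 20 peaks, and its RNA was too low to test. IRS2, an insulin receptor adaptor, had 15, 18 and 19 against 12, 12 and 13 peaks, and its RNA change of -0.18 ± 0.114 did not pass the test (edgeR adjusted p = 0.235). PRKAG2, a regulatory subunit of the AMP-activated kinase, had 14, 13 and 14 against 10, 11 and 10 peaks, and its RNA fell by 0.42 ± 0.0441 (edgeR adjusted p = 2.31e-05). LRRK1 had 6 peaks in each shControl list and 3 in each shLOXL2 list, and its RNA fell by 0.34 ± 0.0611 (edgeR adjusted p = 0.00105). GULP1 (7, 9 and 8 against 4, 4 and 5) and UTRN (16, 15 and 17 against 13, 12 and 13) had fewer peaks and more RNA, by 0.17 ± 0.0542 and 0.19 ± 0.0663 on the log2 scale (edgeR adjusted p = 0.0257 and 0.0379). DCLK2 (13, 13 and 11 against 8, 8 and 10), CITED2 (18, 17 and 18 against 15, 16 and 12) and NRN1 (11, 11 and 10 against 8, 8 and 7) completed the 10 falls taken. NRN1 and LRRK1 were 2 of 7 genes tied at the last place, chosen by their limma p. Of the 10 falls in peak number only EDN1 and LRRK1 passed limma at 0.05. LRRK1, at an adjusted p of 3.84e-05, had no spread within either group. For CAMK1G, with the largest fall, the limma adjusted p was 0.150. None of the 10 was lower without overlap in the full lists, where 0.037% of all genes were. LOXL2 itself had 1 peak in each shControl list and 1, 0 and 1 in shLOXL2 at equal number, and 1, 3 and 2 against 3, 6 and 5 in the full lists. MED1 had 0, 0 and 1 against 1, 0 and 0 at equal number, and 0, 1 and 1 against 1 in each shLOXL2 list in full.

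**Figure D5:**
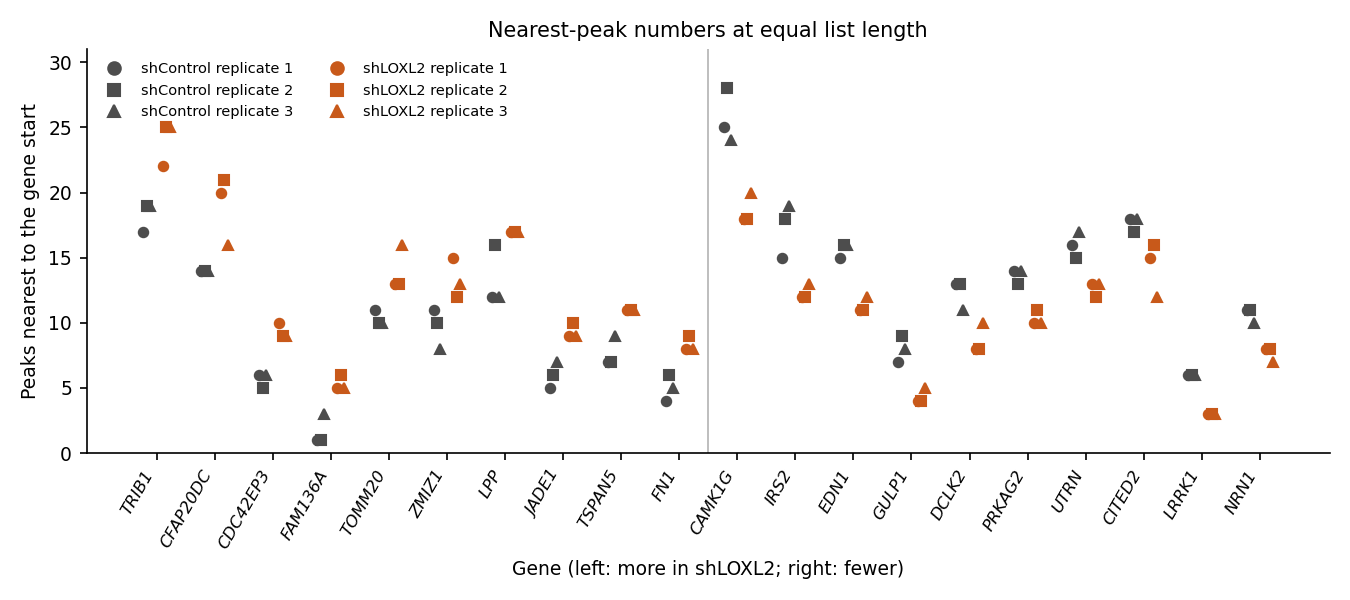
Number of peaks nearest to the start of each of the 20 genes with the largest separated differences at equal number (y axis, count). Each point is 1 library, with the 10 rises to the left of the line and the 10 falls to the right. The genes were chosen because the groups do not overlap, as for TRIB1 with 17 to 19 against 22 to 25.

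RNA moved in both directions at genes with a changed number of peaks. Of the 387 genes with more peaks, 278 were tested in RNA, and 79 rose (28.4%) and 67 fell (24.1%), with a median log2 fold change of 0.00. Of the 288 with fewer peaks, 222 were tested, and 51 rose (22.97%) and 69 fell (31.1%), with a median of -0.07. Over all tested protein-coding genes the median was 0.00, beside the shares of 24.4% and 23.8% above.

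The nearest genes were also grouped by function in 16 lists. At equal number 3 of 16 had separated counts, which are described here without a test. The epithelial-mesenchymal transition list had 71, 72 and 70 peaks in shControl and 74, 79 and 74 in shLOXL2. FN1 was its 1 member with separated counts, and ZEB2, a repressor that drives this transition, had 10, 10 and 11 against 11, 12 and 12. RNA of its 15 tested members rose in 1 and fell in 5. For this and the other lists, 24.4% of all tested protein-coding genes rose and 23.8% fell. The collagen, laminin and matrix list had 89, 95 and 94 peaks against 85, 82 and 85, and 11, 12 and 10 of its 26 members had a peak at their own start against 7 in each shLOXL2 list. COL4A1 of basement membrane had a promoter peak in 2 shControl and 0 shLOXL2 lists at equal number, and COL5A1 and FBN1, genes of fibrils and microfibrils, in 3 and 1. In full length lists each of these 3 had one in all 3 libraries of both groups. RNA of 23 tested members rose in 9 and fell in 8, with COL5A1 higher by 0.24 ± 0.0512 and FBN1 lower by -0.29 ± 0.0655 on the log2 scale (edgeR adjusted p = 0.0031 and 0.00414). The TGF-beta and ID list had 129, 121 and 126 peaks against 118, 119 and 120, and its members with a promoter peak were 15 in each shControl list and 14, 12 and 11 in shLOXL2. TGFB2, a ligand, had 18, 13 and 16 peaks against 11, 13 and 10, and TGFBR2, a receptor, 18, 18 and 17 against 18, 19 and 18. In the longer full lists both were higher in shLOXL2 without overlap. TGFB2 had 18, 19 and 17 against 23, 24 and 20 there, and TGFBR2 had 18, 26 and 23 against 31, 35 and 38. All protein-coding genes together had a promoter peak in 40.7%, 40.3% and 42.7% against 38.1%, 37.7% and 37.0%, also lower without overlap. The mean share of members went from 42.3% to 26.9% in the collagen, laminin and matrix list and from 65.2% to 53.6% in the TGF-beta and ID list. Whether these falls exceed that of all genes was not tested. In the full lists, taken as a share of peaks, 3 other lists were separated (G2 and M phase, cytosolic ribosomal proteins and ZNF zinc finger genes). The 3 lists separated at equal number were not.

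The cell cycle, named in the series title, showed RNA falls without separated peak numbers at equal number. Of 41 tested S phase genes 40 fell in RNA, with a median log2 fold change of -0.57, and their 42 listed members had 50, 48 and 51 peaks in shControl against 47, 52 and 40 in shLOXL2. The longer full lists gave them 50, 70 and 63 against 80, 78 and 90 peaks, without overlap. At equal number a promoter peak was present in 33, 34 and 36 members against 32, 33 and 29. GINS2, a subunit of the replicative helicase, was the 1 member with separated counts at equal number, 2 peaks in each shControl list and 1 in each shLOXL2 list. In the full lists it had 2, 6 and 3 against 7, 6 and 6 peaks, with overlap. Its own start had a peak in 2 shControl and 3 shLOXL2 lists at equal number. GINS2 RNA fell by 0.87 ± 0.0687 on the log2 scale (edgeR adjusted p = 3.61e-06). Of 52 G2 and M phase genes 46 fell in RNA and 1 rose, with a median of -0.47. They had 86, 100 and 93 against 90, 90 and 95 peaks at equal number, with overlap. The full lists, of unequal length, gave them 86, 145 and 118 against 142, 134 and 154 peaks, also with overlap. Taken as a share of each full list, G2 and M phase peaks were lower in shLOXL2 without overlap, and S phase peaks overlapped. MKI67, the Ki-67 gene, had 5, 8 and 8 against 6, 6 and 8 peaks, while its RNA fell by 0.51 ± 0.0786 (edgeR adjusted p = 0.000344). TMPO, a nuclear lamina gene, had 10, 10 and 9 against 9, 10 and 10 peaks and fell by 0.51 ± 0.0503 in RNA (edgeR adjusted p = 1.53e-05).

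Among adhesion genes the integrin and focal adhesion list had 86, 88 and 86 peaks against 81, 87 and 94, with overlap. Its RNA rose in 14 of 25 members and fell in 4, beside 24.4% and 23.8% of all tested protein-coding genes. ITGB1, the beta-1 integrin gene, had 4, 5 and 4 against 6, 6 and 6 peaks, and its RNA rose by 0.32 ± 0.0465 on the log2 scale (edgeR adjusted p = 0.000217). ITGAV, the alpha-V integrin gene, had 4 against 3 peaks in each library, and its RNA fell by 0.23 ± 0.0451 (edgeR adjusted p = 0.00184). In the full lists the peak numbers of ITGB1 and of ITGAV overlapped between the groups. The epithelial junction and keratin list had 34, 38 and 41 against 37, 42 and 45 peaks, with overlap, and its RNA rose in 12 of 19 tested members and fell in 1. DSP, the desmoplakin gene, rose by 0.70 ± 0.0460 in RNA (edgeR adjusted p = 1.12e-06) with 6, 5 and 5 against 5 peaks in each shLOXL2 list. In F3, the tissue factor gene of the Hippo and YAP list, 5, 4 and 5 peaks stood against 3, 3 and 2 at equal number. The longer full lists gave F3 5 peaks in each shControl list and 7, 7 and 11 in shLOXL2, higher without overlap. Lists of genes that this line mostly does not use served as a background: 399 olfactory receptor genes had 51, 49 and 45 against 48, 45 and 43 peaks.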

How the data were processed

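Open chromatin was measured by ATAC-seq in 6 libraries and RNA by RNA-seq in 6, grouped by the treatment in the labels. Per the labels' protocols, cells were treated with Tn5 and the DNA was size-selected on beads. The authors deposited 1 peak list per library, with positions and 1 score for each peak. The lists are called filtered in their names, and the numbering of the peaks has gaps. The submitters' processing notes name Trim Galore 0.6.5, Bowtie2 2.4.2, SAMtools 1.11, Picard 2.23.8, MACS2 2.2.7.1, DiffBind 3.0.7 and hg19 for ATAC-seq, and STAR 2.7.6a, DESeq2 1.30.0 and GRCh37.p13 for RNA-seq, without their roles. The caller's threshold and any shift of reads for the Tn5 cut are not given in the sources used here. For RNA the authors deposited unnormalized counts, which total 40254464 to 49375803 per library.

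Peaks were placed on the GENCODE v44lift37 annotation with Python 3.11.15, numpy 2.4.6 and pandas 2.3.3. A peak that was no promoter peak took its class from its midpoint. Equal number means the 27099 best-scoring peaks, since scores in the full lists start at 20. Shares were compared by two-sided exact permutation over libraries. Windows with a mean of at least 5 peaks and genes with at least 2 were fitted with limma 3.58.1, and RNA with edgeR 4.0.16 (filterByExpr, TMM) in R 4.3.3, with a threshold of 0.05. On simulated Poisson counts for the 569 windows, rises were placed in 50 windows with a mean count at or above the median of 45.2. Of these 1.5-fold rises 96% were recovered, and 7.69% of the calls were unchanged windows. Falls and windows with fewer peaks were not covered. Motif shares and function lists are descriptions.

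The members, lists and tests were chosen with earlier results of these data known. Named genes are LOXL2 and MED1, the 10 largest rises and falls in nearest peaks among genes whose groups do not overlap, the 5 largest rises and falls among called windows, and the 2 members of each list with most peaks, of which those that matter here are given. List members with separated counts, COL4A1, COL5A1, FBN1, FOSL1 and JUND were added after their values were seen. Printed regions were the best ranked of their kind, without exons; 1 better-ranked promoter was passed over because its centre is exonic. Of the regions the rule takes, 2 are not reported here. Alternatives were equal number, the better-scoring part of each list, other gene starts, promoter windows and filters, a replicate block, and each replicate left out. Same-numbered replicates deviated together only weakly (correlations of 0.0443, 0.200 and 0.169 over windows and -0.0496, -0.0643 and -0.105 over RNA), so the numbers were not taken as pairs.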

Additional observations from a re-analysis of the deposited data

How the results depend on the processing

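Of 145 alternatives over 14 results, 114 stayed close to the main value, 30 moved and 1 reversed. For results that are counts, close refers to the number alone, so the 114 include changes of content. The 3 function lists separated in all peaks were not the 3 separated at equal number. Windows outside promoters went from 5 higher and 18 lower to 19 higher and 8 lower. The main value came from all peaks for class shares, distances and widths. It came from equal number for chromosomes, windows, genes, AP-1 and function lists. The promoter, intron and intergenic shares and the share beyond 50 kb kept their direction under the alternatives run, but not their size. In all peaks the promoter share differed by -4.72 percentage points, beside -3.17 at equal number. With each replicate left out, the promoter share difference in all peaks ranged from -6.39 to -3.22 percentage points. The intron one ranged from 1.97 to 3.73, the intergenic one from 1.13 to 2.54 and the share beyond 50 kb from 0.587 to 2.44 percentage points. The log2 ratio of median distances ranged from 0.06 to 0.24. Each range runs between the values without shControl replicate 1 and without shControl replicate 2. The share beyond 50 kb and the median distance overlapped between the groups in all peaks (exact permutation p = 0.4 for both). With a 3 kb promoter window the intron and intergenic shares overlapped between the groups (exact permutation p = 0.2). The exon share difference, 0.160 percentage points in all peaks, reversed to -0.0729 with protein-coding gene starts. The log2 ratio of median widths moved from -0.06 in all peaks to 0.14 at equal number. Chromosomes with separated shares went from 4 to 7 in all peaks, and ranged from 4 to 9 with each replicate left out. Called windows went from 23 to 0 with all peaks, 0 in 1 Mb windows, 3 without the filter and 3 to 33 with each replicate left out. Called genes went from 65 to 0 with all peaks, 142 at a mean of at least 1 peak and 0 at a mean of at least 8 peaks. They were 66 among genes with some spread within a group and 114 to 174 with each replicate left out. With a replicate block, 1 window and 37 genes were called, and the promoter share difference in all peaks stayed at -4.72. The median RNA change at genes with more peaks went from 0.00200 to 0.0207 without the filter and ranged from -0.00843 to 0.0118 with each replicate left out; at genes with fewer peaks the range was -0.0792 to -0.0525. The AP-1 difference of 5.57 percentage points was 4.53 in all peaks, 3.94 in the central 100 bases and 5.12 to 6.08 with each replicate left out. The causes of these moves were not tested. Peak lists without read depths limit what can be said of any single region.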
